A study of Mus musculus with 19 samples.

Results

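The genes described here are 9 of the 35842 listed in the hippocampal RNA-seq of this study: Pdcd1, Lag3, Cd72, Cd84, Lilrb4a, Cd52, Mpeg1, Slc11a1 and St14. They are checkpoint and inhibitory receptors and other myeloid genes, and they were selected because their levels in these same mice stood higher with APP/PS1. The differences between mice with and without APP/PS1 are therefore given as values, and no test is read from them. The study asked what an excess of neuronal adenosine A2A receptor does in an amyloid mouse, and 19 female C57Bl6/J mice fell into 4 genotypes: 5 WT, 5 APP/PS1, 5 A2A and 4 APP/PS1 A2A. APP/PS1 mice were heterozygous for the APPswe/PS1dE9 transgenes, which drive amyloid plaque formation. A2A mice carried TRE-A2A, an optimised cDNA of the mouse receptor behind a Tet-responsive element, which is silent until the transactivator tTA binds it. All 4 groups, WT included, received an AAV2/5 vector with tTA under the CBA promoter in the CA1 area of both dorsal hippocampi at 3 months of age, so that every mouse carried the vector and the surgery, and the hippocampus of 1 hemisphere was taken at 6 months. The vector was used for its tropism for neurons, and by double staining the study found the excess receptor almost only in neurons. Most of the genes below are known to be expressed by myeloid cells.

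Microglia are the resident macrophages of the brain. Around amyloid plaques they change their expression programme and bring both activating and inhibitory receptors to the surface. Inhibitory receptors such as CD72 and LILRB4 carry tyrosine motifs in their cytoplasmic tails that, once phosphorylated, recruit the phosphatases SHP-1, SHP-2 and SHIP-1 and dampen signals from activating receptors. PD-1 and LAG-3, known best as checkpoints of exhausted T cells, are the targets of checkpoint antibodies in cancer, and their transcripts have also been found in microglia. The remaining genes code for proteins of the macrophage surface and of its phagosome.

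Promoter sequence was at hand for 5 of the 9 genes in the RefSeq set (GRCm38.p6, the same assembly as mm10, 250 bases before and 50 after each start). It is shown because PU.1, the lineage factor of macrophages, is the regulator most often tied to genes of this kind. The core letters of its site, GAGGAA, were searched on both strands and were present in the windows of Pdcd1, Cd72, Cd84 and Slc11a1, but not in that of Mpeg1. Of all 32851 promoters of the set 28.3% hold it. The longer composite element at which PU.1 pairs with an interferon regulatory factor (the PU.1 and IRF motif) occurred only in the Pdcd1 window among the 5, and in 2.72% of all promoters. The AP-1 letters TGANTCA were present in the window of Cd84 alone among the 5 (7.81% of all), and CACGTG, the letters bound by TFEB and other bHLH factors, in none of the 5 (7.15% of all). A match is a description of letters and no evidence of binding. The windows of Pdcd1 (chr1:94052504-94052803, minus strand), Slc11a1 (chr1:74374953-74375252, plus strand) and Mpeg1 (chr19:12460520-12460819, plus strand) follow from 5′ to 3′, with matches to GAGGAA or to the composite PU.1 and IRF motif, on either strand, in capitals. They show the gene with the most matches, 1 with a single match and the most abundant gene, which has no match.
Pdcd1: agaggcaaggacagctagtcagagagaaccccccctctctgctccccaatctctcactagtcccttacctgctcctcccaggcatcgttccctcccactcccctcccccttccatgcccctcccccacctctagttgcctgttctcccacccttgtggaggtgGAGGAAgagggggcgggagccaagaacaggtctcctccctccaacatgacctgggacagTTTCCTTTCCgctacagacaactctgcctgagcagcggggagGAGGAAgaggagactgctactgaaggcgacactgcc
Slc11a1: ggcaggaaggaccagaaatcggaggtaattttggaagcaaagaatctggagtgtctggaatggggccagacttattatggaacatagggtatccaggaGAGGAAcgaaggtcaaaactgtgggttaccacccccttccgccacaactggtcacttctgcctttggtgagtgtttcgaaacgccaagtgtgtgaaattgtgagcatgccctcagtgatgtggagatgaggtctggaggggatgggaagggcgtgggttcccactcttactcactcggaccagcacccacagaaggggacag
Mpeg1: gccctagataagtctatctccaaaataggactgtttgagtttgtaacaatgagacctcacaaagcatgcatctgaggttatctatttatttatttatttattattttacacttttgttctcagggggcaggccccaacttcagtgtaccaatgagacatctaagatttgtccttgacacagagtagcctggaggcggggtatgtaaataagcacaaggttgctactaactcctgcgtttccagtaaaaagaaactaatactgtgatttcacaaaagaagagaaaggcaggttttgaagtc

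The libraries held between 21305902 and 53717373 counts (median 35891080), and all 9 genes passed the filter on low counts that left 18529 genes for testing. Levels are given in CPM, the counts of a gene scaled to a common library size. App served as a check of the APP/PS1 labels, and its level was 1381 to 1920 CPM in WT and A2A mice and 3282 to 4499 CPM in the mice with APP/PS1. Adora2a, the endogenous gene of the receptor, ran from 1.09 to 1.54 CPM in WT mice and from 0.865 to 9.35 CPM in A2A mice. Whether reads from the optimised cDNA count towards Adora2a was not tested. Markers of hippocampal neurons were present in every library (1132 to 1995 CPM over 5 genes). Markers of choroid plexus epithelium varied from 57.0 to 10008 CPM between mice, with the ranges of all 4 groups overlapping. Those of red blood cells summed to 5.34 to 26.1 CPM in WT, 5.76 to 32.5 CPM in A2A, 12.4 to 272 CPM in APP/PS1 and 6.22 to 17.6 CPM in APP/PS1 A2A mice, with APP/PS1 replicates 2 and 5 above all other mice. All 5 of these markers had an unadjusted p under 0.05 in edgeR, higher in APP/PS1 versus WT (median log2 fold change 2.80) and lower in APP/PS1 A2A versus APP/PS1 (median -2.80), and none passed the adjustment. The part of blood in the values below was not tested. In RNA from whole hippocampus, more cells of a type and more RNA per cell cannot be told apart.

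**Figure D1:**
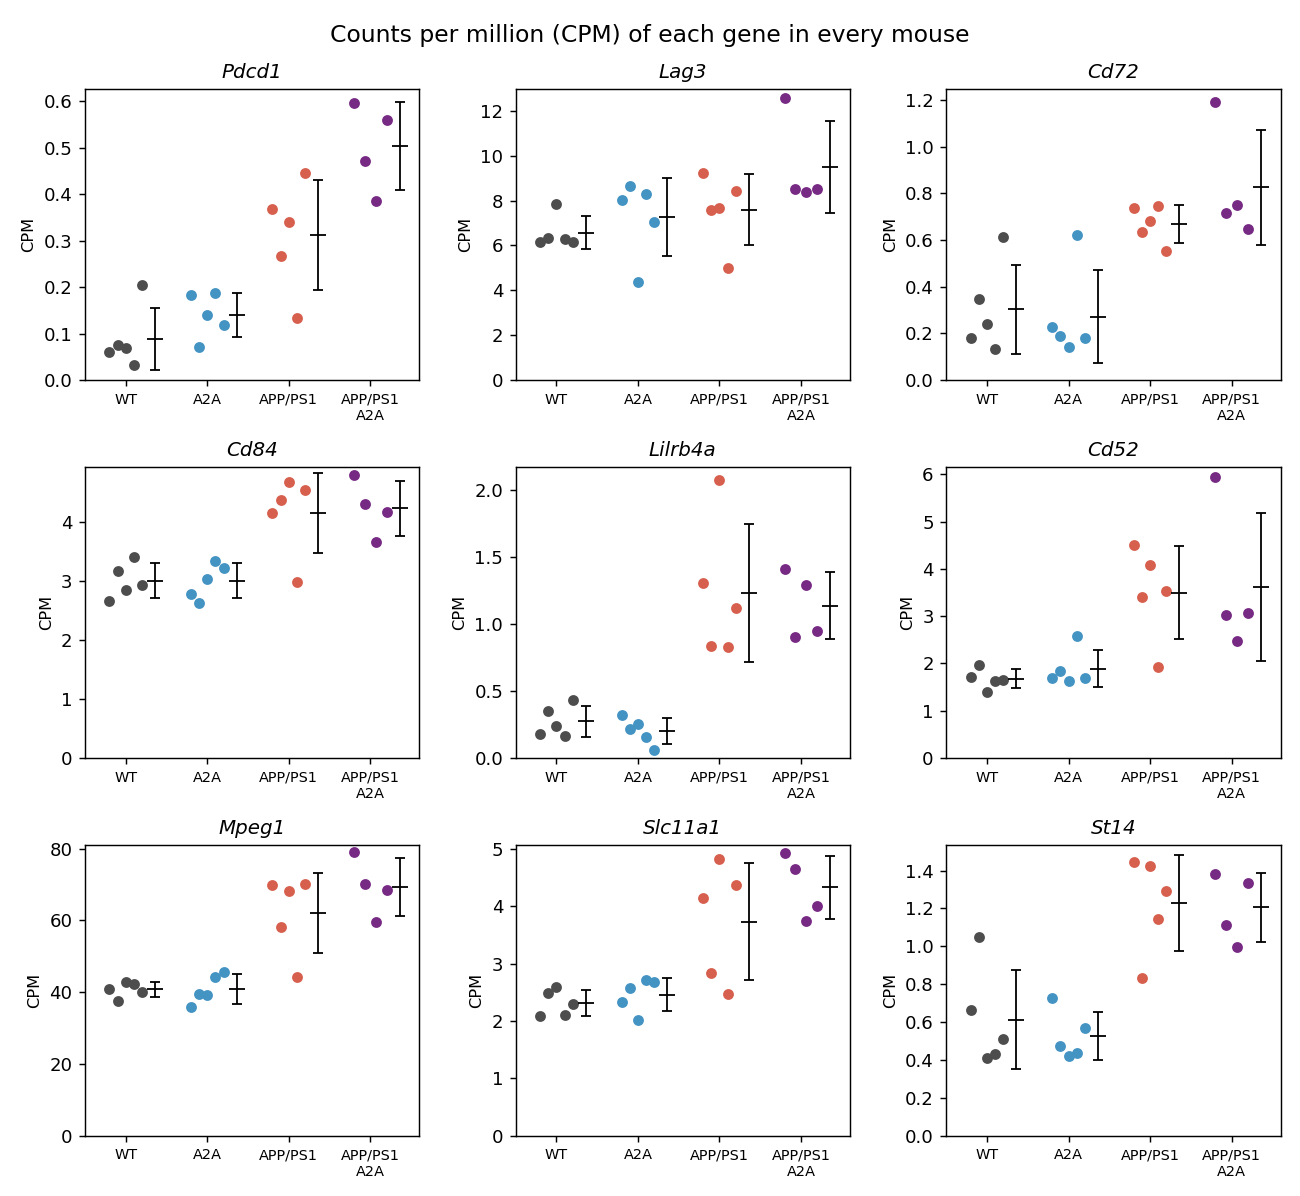
Level of each of the 9 genes in every mouse, in CPM on linear axes that start at 0. Each point is 1 mouse, and the horizontal bar and whiskers beside the points are the mean and SD of the group (n = 5, or 4 for APP/PS1 A2A). For Lilrb4a all 9 mice with APP/PS1 lie above all 10 without, whereas for Lag3 the groups run into each other. The genes were chosen on this difference.

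Pdcd1 encodes PD-1, a receptor whose ligand PD-L1 delivers an inhibitory signal. The gene lies at chr1:94038305-94052553 on the minus strand (mm10) with 5 exons. Its level was 0.0604, 0.0749, 0.0684, 0.0334 and 0.204 CPM in the WT mice and 0.182, 0.0708, 0.14, 0.187 and 0.119 CPM in the A2A mice. It was 0.369, 0.267, 0.341, 0.133 and 0.445 CPM in the APP/PS1 mice and 0.596, 0.471, 0.386 and 0.56 CPM in the APP/PS1 A2A mice. Every APP/PS1 A2A mouse stood above every A2A mouse, while APP/PS1 replicate 4 fell inside the range of WT. These are small numbers of reads, 16 counts over the 5 WT mice, 22 over A2A, 58 over APP/PS1 and 90 over APP/PS1 A2A, with 1 to 26 in a single library. The log2 fold change was 1.74 (SE 0.41) for APP/PS1 versus WT and 1.86 (SE 0.39) for APP/PS1 A2A versus A2A.

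T cells are the classical source of PD-1, so their markers were read in the same libraries. The summed level of 8 T cell markers was 1.40 to 2.09 CPM in WT, 1.16 to 2.06 CPM in A2A, 0.936 to 1.92 CPM in APP/PS1 and 1.23 to 1.94 CPM in APP/PS1 A2A mice, none of the 8 being at 0 in all libraries. The ranges of the 4 groups overlapped, and the CD3 genes had group means of at most 0.104 CPM. The part of T cells in the Pdcd1 level was not tested. Markers of NK cells summed to 0.0596 to 0.468 CPM and those of B cells to 0.213 to 0.775 CPM over all mice. Markers of neutrophils and monocytes summed to 0.649 to 1.93 CPM in WT, 1.13 to 11.9 CPM in A2A, 0.681 to 3.93 CPM in APP/PS1 and 1.07 to 2.71 CPM in APP/PS1 A2A mice, the top value being that of A2A replicate 1. In A2A versus WT S100a8 and S100a9 had log2 fold changes of 1.75 and 1.65 (adjusted p = 0.964 for both in edgeR's test).

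Lag3 encodes LAG-3, a receptor of the CD4 family that binds MHC class II and fibrinogen-like protein 1. It lies at chr6:124904361-124911705 on the minus strand. Its level was 6.16, 6.31, 7.86, 6.31 and 6.17 CPM in the WT mice and 8.02, 8.67, 4.35, 8.29 and 7.04 CPM in the A2A mice. In the APP/PS1 mice it was 9.22, 7.6, 7.68, 5.01 and 8.42 CPM, and in the APP/PS1 A2A mice 12.6, 8.53, 8.37 and 8.5 CPM. The groups overlapped in both comparisons, and only 2 of the 9 mice with APP/PS1 stood above all mice without it. The log2 fold change was 0.21 (SE 0.18, 95% interval -0.17 to 0.59) for APP/PS1 versus WT and 0.38 (SE 0.19, 95% interval -0.02 to 0.79) for APP/PS1 A2A versus A2A. Both intervals include no change, so these data do not clearly place Lag3 higher with APP/PS1, although it was selected as such a gene. Without APP/PS1 A2A replicate 1 the second value was 0.23.

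Cd72, Cd84 and Lilrb4a encode receptors with inhibitory or dual tyrosine motifs. Lilrb4a, the mouse counterpart of human LILRB4, lies at chr10:51490956-51496611 on the plus strand. Its level was 0.181, 0.349, 0.239, 0.167 and 0.433 CPM in the WT mice and 0.319, 0.213, 0.253, 0.156 and 0.0596 CPM in the A2A mice. In the APP/PS1 mice it was 1.31, 0.834, 2.08, 0.826 and 1.12 CPM, and in the APP/PS1 A2A mice 1.41, 0.904, 1.29 and 0.947 CPM. It was the only one of the 9 genes for which all 9 mice with APP/PS1 stood above all 10 without. The share of all genes with this arrangement was not computed. Nothing is read from it, because the genes were chosen on this difference. The log2 fold change, 2.13 (SE 0.35) for APP/PS1 versus WT and 2.52 (SE 0.38) for APP/PS1 A2A versus A2A, was the largest of the 9 in both comparisons. The annotation places 1846 of its exon bases in Gm49339 on the same strand, and its neighbour Lilr4b is a close relative, so reads may have been lost or split among them and its level is uncertain. Lilr4b itself had mean levels of 0.180 CPM in WT, 0.136 CPM in A2A, 0.213 CPM in APP/PS1 and 0.277 CPM in APP/PS1 A2A mice.

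Cd72, best known as an inhibitory receptor of B cells with semaphorin 4D as a ligand, lies at chr4:43446462-43454628 on the minus strand. Its mean level was 0.303 ± 0.190 CPM in WT (SD, n = 5), 0.272 ± 0.199 CPM in A2A (SD, n = 5), 0.670 ± 0.0804 CPM in APP/PS1 (SD, n = 5) and 0.826 ± 0.248 CPM in APP/PS1 A2A mice (SD, n = 4). Only 2 mice without APP/PS1 reached the range of those with it, WT replicate 5 at 0.612 CPM and A2A replicate 4 at 0.624 CPM. Both were among the mice richest in choroid plexus markers (8087 and 6866 CPM). Of the other mice rich in these markers, APP/PS1 replicate 4 (10008 CPM) had the highest Cd72 level of its group, 0.746 CPM. WT replicate 2 (6546 CPM) had 0.349 CPM, and WT replicate 4 (5487 CPM) had the lowest Cd72 level of all (0.134 CPM). APP/PS1 A2A replicate 1, with the least of these markers (57.0 CPM), had the highest Cd72 level of all (1.19 CPM). The part of choroid plexus in these values was not tested. On the log2 scale the fold change was 1.1 (SE 0.39) for APP/PS1 versus WT and 1.59 (SE 0.41) for APP/PS1 A2A versus A2A. Tesk1 on the opposite strand shares 1423 exon bases with Cd72, and whether the counting used strand is not given in the sources used here.

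Cd84 (chr1:171839697-171890718, plus strand) encodes a receptor of the SLAM family that binds a second CD84 molecule on a neighbouring cell. Its level was 2.66 to 3.41 CPM in WT, 2.62 to 3.34 CPM in A2A, 2.98 to 4.68 CPM in APP/PS1 and 3.65 to 4.8 CPM in APP/PS1 A2A mice. All APP/PS1 A2A mice were above all A2A mice. In the other pair only APP/PS1 replicate 4, at 2.98 CPM, fell within the WT range. The log2 fold change was 0.46 (SE 0.13) for APP/PS1 versus WT and 0.49 (SE 0.14) for APP/PS1 A2A versus A2A, small beside that of Lilrb4a but measured on more reads.

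Cd52 (chr4:134082448-134095082, minus strand) encodes a short glycoprotein anchored in the membrane of lymphocytes and myeloid cells, the target of the antibody alemtuzumab. Its level was 1.40 to 1.97 CPM in WT and 1.63 to 2.59 CPM in A2A mice, against 1.92 to 4.51 CPM in APP/PS1 and 2.47 to 5.93 CPM in APP/PS1 A2A mice. In each pair a single mouse with APP/PS1 came within the range of the mice without it, APP/PS1 replicate 4 (1.92 CPM) and APP/PS1 A2A replicate 3 (2.47 CPM). APP/PS1 versus WT gave a log2 fold change of 1.05 (SE 0.24) and APP/PS1 A2A versus A2A 0.93 (SE 0.25). Crybg2 on the opposite strand shares 172 exon bases with it.

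Mpeg1 (chr19:12460779-12465284, plus strand) encodes perforin-2, a pore-forming protein with which macrophages attack engulfed bacteria. It was the most abundant of the 9. Its level was 40.8, 37.5, 42.9, 42.4 and 40.2 CPM in the WT mice and 35.7, 39.4, 39.3, 44.2 and 45.8 CPM in the A2A mice. In the APP/PS1 mice it was 70.0, 58.2, 68.2, 44.3 and 70.1 CPM, and in the APP/PS1 A2A mice 79.0, 70.2, 59.5 and 68.6 CPM. The groups did not overlap in either comparison, although APP/PS1 replicate 4 cleared the highest WT mouse by little and lay below 1 A2A mouse. APP/PS1 versus WT gave a log2 fold change of 0.61 (SE 0.11) and APP/PS1 A2A versus A2A 0.76 (SE 0.11).

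Slc11a1 (chr1:74375195-74386062, plus strand) encodes NRAMP1, which carries iron and manganese across the phagosome membrane. Its level was 2.09, 2.5, 2.6, 2.1 and 2.29 CPM in the WT mice and 2.33, 2.57, 2.02, 2.71 and 2.68 CPM in the A2A mice. In the APP/PS1 mice it was 4.14, 2.83, 4.83, 2.48 and 4.37 CPM, and in the APP/PS1 A2A mice 4.93, 4.65, 3.74 and 4.0 CPM. APP/PS1 replicate 4 again fell within WT, and no APP/PS1 A2A mouse fell within A2A. On the log2 scale the fold change was 0.69 (SE 0.17) for APP/PS1 versus WT and 0.81 (SE 0.18) for APP/PS1 A2A versus A2A.

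St14 (chr9:31089402-31131853, minus strand) encodes matriptase, a serine protease of the cell membrane that is most studied in epithelium. Its level was 0.410 to 1.05 CPM in WT, 0.421 to 0.730 CPM in A2A, 0.834 to 1.45 CPM in APP/PS1 and 0.998 to 1.38 CPM in APP/PS1 A2A mice. WT replicate 2 was the high mouse among those without APP/PS1 (1.05 CPM), and it also held much epithelial RNA (24.2 CPM summed over Epcam, Cdh1, Krt8 and Krt18). The mouse with the most of these markers, APP/PS1 replicate 4 (28.1 CPM), had a St14 level inside the range of its group (1.14 CPM), and the one with the least, APP/PS1 A2A replicate 1 (1.71 CPM), had 1.38 CPM. The group ranges of the epithelial sum overlapped, and its part in the St14 level was not tested. In log2 terms the fold change was 0.99 (SE 0.25) for APP/PS1 versus WT and 1.21 (SE 0.26) for APP/PS1 A2A versus A2A.

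Between genes, levels can be set side by side only per length. In WT mice the order of CPM per kb of exon was Mpeg1 (9.40), Lag3 (3.11), Cd52 (1.41), Slc11a1 (0.625), Cd84 (0.478), Cd72 (0.0886), St14 (0.0803), Lilrb4a (0.0524) and Pdcd1 (0.0457). The spread between mice was 75.5% of the mean for Pdcd1, 62.8% for Cd72, 42.8% for St14 and 41.7% for Lilrb4a, so these last 4 genes overlap in level. Cd72 and St14 changed places when the median transcript length deposited with the counts was used.

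As a description of the selection, all 9 log2 fold changes were positive in both comparisons, with medians of 0.99 for APP/PS1 versus WT and 0.93 for APP/PS1 A2A versus A2A (0.00 in both over all 18529 genes). In edgeR's quasi-likelihood test with Benjamini-Hochberg adjustment over all genes, Lilrb4a and Mpeg1 passed in both comparisons, with adjusted p = 0.0161 and 0.0456 for APP/PS1 versus WT and 0.00578 for both genes in APP/PS1 A2A versus A2A. The test called 0.054% and 0.0594% of all genes higher in these comparisons. DESeq2 placed 3 and 7 of the 9 past the same thresholds, against 0.119% and 0.264% of all genes. All mice of the first group stood above all mice of the second for 2 of the 9 genes in APP/PS1 versus WT (0.259% of all genes) and for 7 of the 9 in APP/PS1 A2A versus A2A (0.998% of all genes). Nothing is read from these counts, because the same contrasts chose the genes. They also hang on single mice for APP/PS1 versus WT, where 3 of the 9 passed without APP/PS1 replicate 4. In that comparison 0 passed without WT replicate 1, 3 or 4 or APP/PS1 replicate 1 or 3, and 1 passed without A2A replicate 2, 3, 4 or 5, APP/PS1 A2A replicate 2 or 4 or APP/PS1 replicate 2 or 5.

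**Figure D2:**
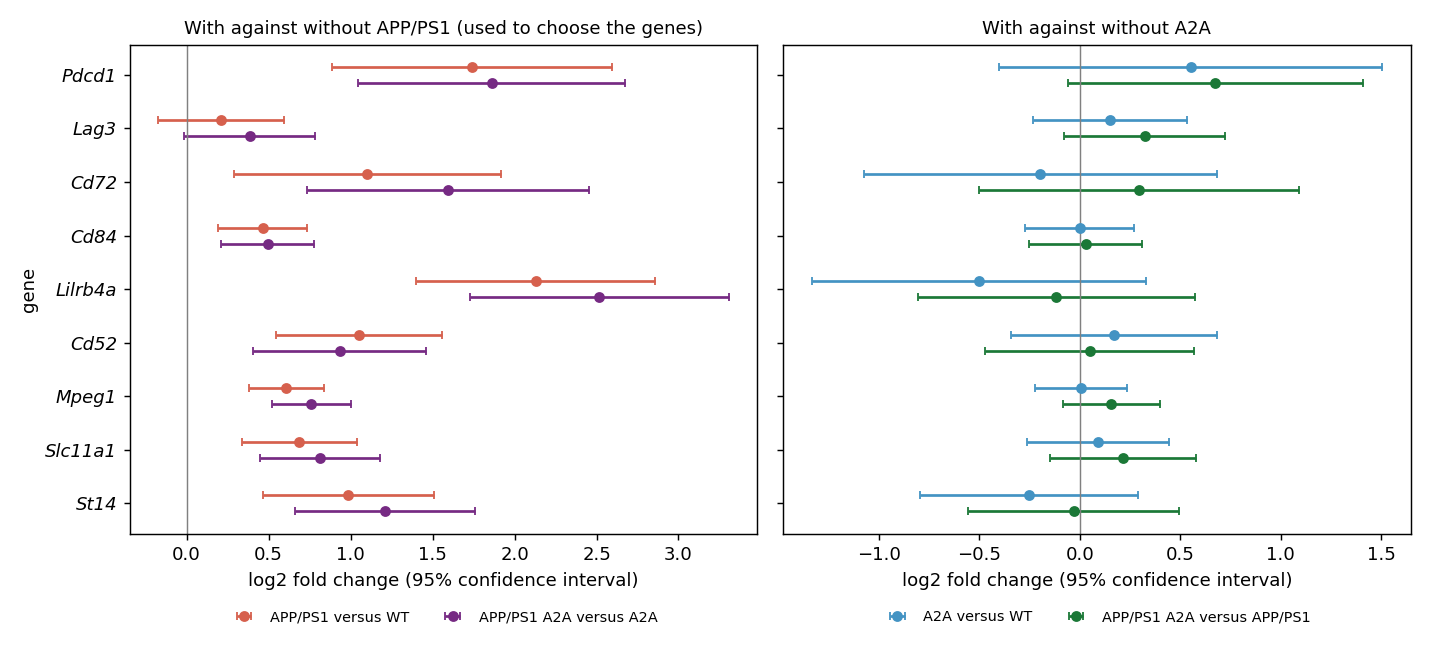
Log2 fold changes of the 9 genes with 95% confidence intervals (edgeR, 19 mice in the fit). On the left, mice with against without APP/PS1, the comparisons that chose the genes, with values from 0.21 to 2.52. On the right, mice with against without A2A, where every interval includes 0.

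The comparisons that did not choose the genes ask whether the excess neuronal receptor shifted them. No shift passed the test. In A2A versus WT the log2 fold changes ran from -0.50 (Lilrb4a, SE 0.40) to 0.55 (Pdcd1, SE 0.45), 5 of the 9 being positive. Both ends rest on few reads, 5 to 17 counts in a WT library for Lilrb4a and 1 to 8 for Pdcd1. With only the WT and A2A mice in the fit, 6 of the 9 passed the filter on low counts. The rest passed it only with the mice with APP/PS1 included, so little is read from their values here. None of the 9 passed edgeR's test (0% of all genes called higher), none had p under 0.05 before adjustment, and none was called by limma-voom or DESeq2. For no gene did all A2A mice stand above all WT mice, an arrangement found for 0.68% of all genes. The widest intervals reached from -1.34 to 1.5 on the log2 scale, so that only large shifts could have been seen for Pdcd1, Cd72 and Lilrb4a. For Mpeg1 the interval was narrower, -0.22 to 0.23.

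In APP/PS1 A2A versus APP/PS1, 7 of the 9 log2 fold changes were positive, with a median of 0.16 (-0.01 over all genes), and none of the 9 passed edgeR's test (0% of all genes called higher). Pdcd1 had the highest value, 0.67 (SE 0.35, 95% interval -0.06 to 1.41) and an adjusted p of 0.9999 in edgeR's test. Its mean level was 0.503 ± 0.0943 CPM in APP/PS1 A2A mice (SD, n = 4) against 0.311 ± 0.118 CPM in APP/PS1 mice (SD, n = 5), and the highest APP/PS1 mouse (0.445 CPM) lay above the lowest APP/PS1 A2A mouse (0.386 CPM). Lag3 followed with 0.32 (SE 0.19) and Cd72 with 0.30 (SE 0.38), whereas Cd84, Cd52, St14 and Lilrb4a lay between -0.12 and 0.05. No gene had an unadjusted p under 0.05 in edgeR or DESeq2, while limma-voom gave 1. All 9 overlapped between the groups (0.232% of all genes did not, with APP/PS1 A2A above).

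The effect of APP/PS1 was also compared between mice with and without A2A. The difference of the log2 fold changes was positive for 8 of the 9 genes and ran from -0.12 (Cd52, SE 0.35) to 0.49 (Cd72, SE 0.57), with a median of 0.15. None of the 9 passed edgeR's test of the difference (0% of all genes called higher), and the smallest unadjusted p was 0.349 (Mpeg1, 0.15, SE 0.16). DESeq2 and limma-voom called none. The intervals of the 9 reached from -1.22 to 1.68. These comparisons use the same mice as those that chose the genes, and Cd72, Cd84, Pdcd1, Slc11a1 and St14 were on the study's list for APP/PS1 A2A versus A2A alone, so a positive sign here is not independent of the choice.

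Since most of these genes are expressed by microglia, each was set against 7 microglial markers (Csf1r, Cx3cr1, P2ry12, Tmem119, Aif1, Itgam and C1qa) in the same library. The summed level of the markers was 287 ± 19 CPM in WT (SD, n = 5), 305 ± 21.8 CPM in A2A (SD, n = 5), 333 ± 55.6 CPM in APP/PS1 (SD, n = 5) and 361 ± 49.7 CPM in APP/PS1 A2A mice (SD, n = 4), with overlapping ranges. On the log2 scale the sum was 0.20 higher in APP/PS1 than in WT and 0.23 higher in APP/PS1 A2A than in A2A. Divided by the sum, the median difference of the 9 genes was 0.79 for APP/PS1 versus WT, from 0.99 before division, and 0.62 for APP/PS1 A2A versus A2A, from 0.86 before (log2 of CPM plus 0.05). These medians depend on the pseudocount for the scarce genes, and that for APP/PS1 versus WT was 0.37 with 0.5 CPM added. Lag3 was the 1 gene whose difference turned, to -0.01 for APP/PS1 versus WT (0.17 for APP/PS1 A2A versus A2A). Cd84 kept 0.25 in both. Lilrb4a kept 1.78 and 2.10, and its groups still did not overlap in either comparison. Those of Mpeg1 did not either, with 0.39 and 0.53. Pdcd1, Slc11a1 and St14 still did not overlap in APP/PS1 A2A versus A2A, where Cd72 and Cd84 now did, and Cd52 no longer overlapped in APP/PS1 versus WT. The same contrasts chose the genes, and the share of all genes that do not overlap after division was not computed. Nothing is read from these separations.

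**Figure D3:**
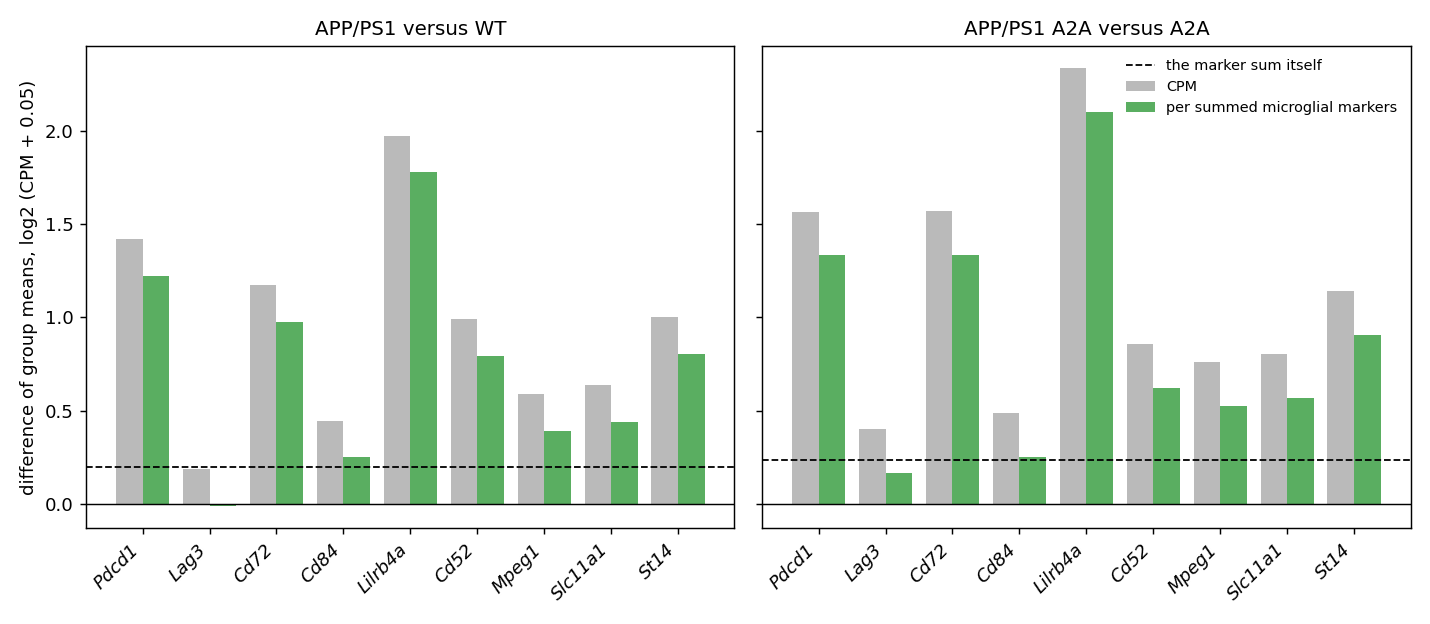
Difference between group means of log2 (CPM + 0.05) for each gene, as CPM (grey bars) and after division by the summed CPM of 7 microglial markers (green bars). The dashed line is the difference of the marker sum itself, 0.20 on the left and 0.23 on the right, and Lag3 on the left is the only green bar under 0.

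Within genotypes, 5 of the 9 genes passed a test of correlation with these markers by both measures among the mice with APP/PS1. None passed among the mice without it, and the difference between these sets of mice was not tested. The share of all tested genes that would pass was not computed, so the 5 are not read as particular to these 9 genes. Group means were removed, and the correlation of log2 levels was computed over the 9 mice with APP/PS1 and over the 10 without, which made 18 relations. Among the mice with APP/PS1, Mpeg1 had r = 0.98 (exact permutation p = 0.00243, adjusted p = 0.0146) and Spearman's rho = 0.97 (exact permutation p = 0.00208, adjusted p = 0.0167). Pdcd1 had r = 0.94 (exact permutation p = 0.000694, adjusted p = 0.0125) and rho = 0.92 (exact permutation p = 0.00208, adjusted p = 0.0167). Slc11a1 had r = 0.88 (exact permutation p = 0.00243, adjusted p = 0.0146) and rho = 0.85 (exact permutation p = 0.00278, adjusted p = 0.0167).

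These 3 relations stayed close when the 2 mice farthest from the median of the markers were left out, with r = 0.96, 0.93 and 0.87 over 7 mice. Lag3 and Cd52 also passed, with r = 0.94 and 0.93 (exact permutation p = 0.00972 and 0.00590, adjusted p = 0.0292 and 0.0225) and rho = 0.88 for both (exact permutation p = 0.00625, adjusted p = 0.0225). Cd84 passed on r = 0.92 (exact permutation p = 0.00625, adjusted p = 0.0225) but not on rho = 0.80 (exact permutation p = 0.0215, adjusted p = 0.0646). Without those 2 mice r was 0.51 for Lag3, 0.61 for Cd52 and 0.50 for Cd84, so these relations rest on them. The 2 mice were APP/PS1 replicate 4, with the lowest marker sum (243 CPM) and the highest choroid plexus level (10008 CPM), and APP/PS1 A2A replicate 1, with the highest marker sum (432 CPM) and the lowest choroid plexus level (57.0 CPM). The part of choroid plexus in these relations was not tested. Cd72 (r = 0.21), St14 (r = 0.55) and Lilrb4a (r = 0.60) did not pass. Without the same 2 mice r was -0.27 for Cd72, 0.89 for St14 and 0.30 for Lilrb4a.

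Among the 10 mice without APP/PS1 no relation passed the adjustment. Lag3 had r = 0.83 (exact permutation p = 0.0306, adjusted p = 0.0786) and rho = 0.76 (exact permutation p = 0.0382, adjusted p = 0.0982), with r = 0.66 over 8 mice without A2A replicate 3 and WT replicate 2. The other 8 genes lay between r = -0.31 (Cd84) and 0.52 (Slc11a1). The markers spread less in these mice, and the difference between the mice with and without APP/PS1 was not tested. Gene and markers come from 1 library, so they share its depth and its makeup.

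**Figure D4:**
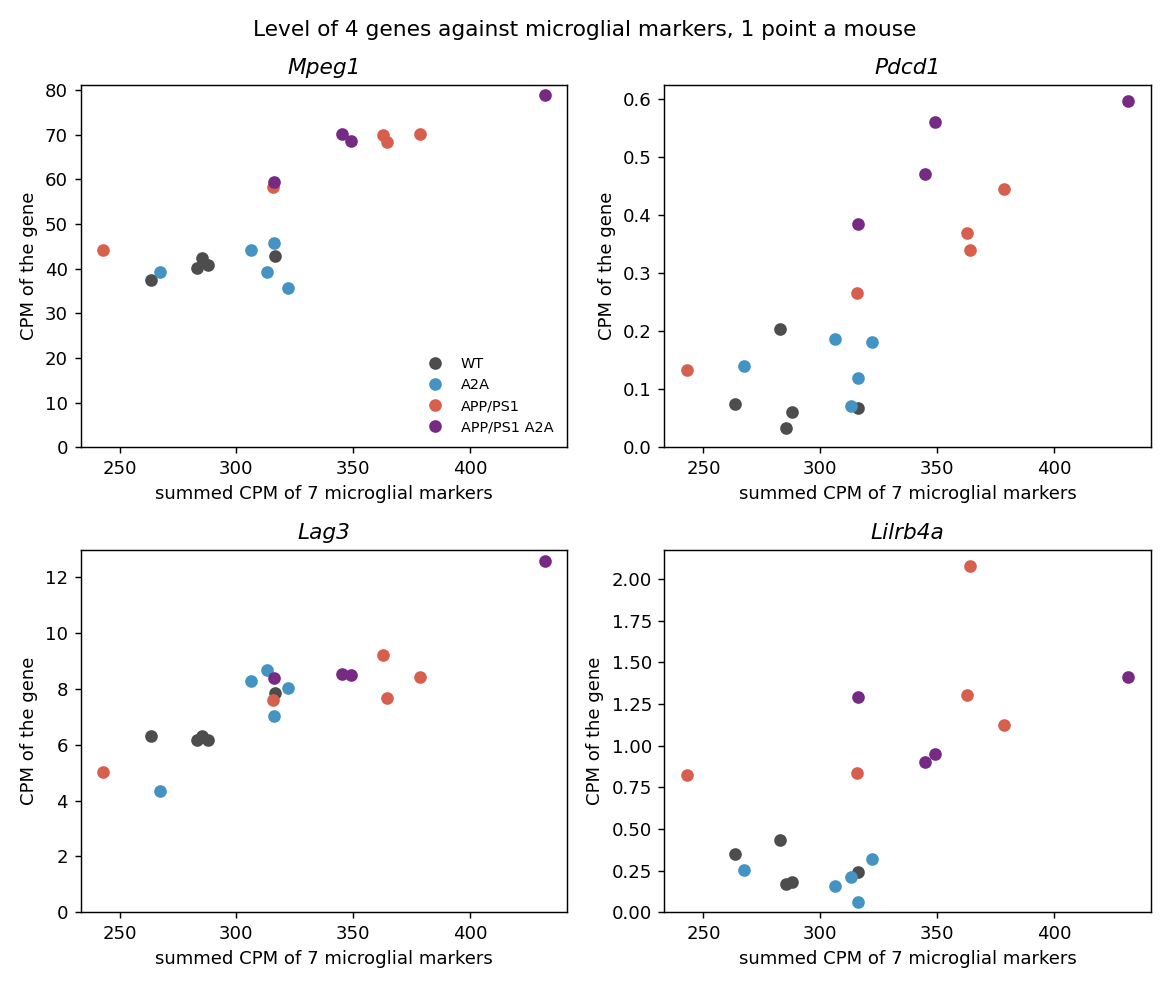
Level in CPM of Mpeg1, Pdcd1, Lag3 and Lilrb4a (vertical axes, from 0) against the summed CPM of 7 microglial markers (horizontal axes), 1 point for each of the 19 mice, coloured by genotype. Mpeg1 and Pdcd1 climb with the markers among the mice with APP/PS1 (r = 0.98 and 0.94 after centring on group means). Lilrb4a, chosen on this difference like the other genes, lies higher in all 9 mice with APP/PS1 than in all 10 without. The mice without APP/PS1 span only 263 to 322 CPM of the markers, and most mice with APP/PS1 lie outside this span.

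Between themselves, with group means removed over the 19 mice, the 9 genes gave 36 pairs with a median r of 0.35, of which 35 were positive. Pairs of other genes were not computed, so these values are not read as particular to the 9 genes. The closest pairs were Mpeg1 with Slc11a1 (r = 0.80), Mpeg1 with Cd84 (r = 0.80) and Mpeg1 with Cd52 (r = 0.74), and the lowest value was that of Lilrb4a with Mpeg1 (r = -0.02). Among 14932 or 14933 other tested genes with a mean over 1 CPM, those with the highest r to Mpeg1 were Aif1 (0.95), Itgam (0.91) and Trem2 (0.90), all expressed by microglia. Slc11a1 was closest to Aif1 (0.89), Vsir (0.88) and Lin37 (0.86), and Cd52 to Ccl6 (0.91) and Tyrobp (0.89). Lag3 was closest to Cdk5r2 (0.90), a neuronal activator of the kinase CDK5, followed by Ctss (0.90) and Olfml3 (0.89). Pdcd1 was closest to Scamp3 (0.90), Catsperd (0.87) and Alg3 (0.78), Cd72 to Rbpms2 (0.87), Alad (0.86) and Slc29a4 (0.85), and Cd84 to Eif3g (0.88), Snx17 (0.83) and Cuedc2 (0.82). Lilrb4a was closest to Poll (0.88), Gga1 (0.86) and 1810043G02Rik (0.84), and St14 to Dnajc17 (0.76), P2ry6 (0.75), a nucleotide receptor of microglia, and Stom (0.73). These are the top values among all genes compared, over 19 mice, and are given as a description.

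Ligands, adaptors and relatives of the 9 genes, 83 in all, were read in the same fit, and 68 of them passed the filter. In edgeR's test 0 of the 68 were called in any comparison. At an unadjusted p under 0.05, 13 were higher and 0 lower in APP/PS1 versus WT, and 16 were higher and 3 lower in APP/PS1 A2A versus A2A. The higher ones made 19.1% and 23.5% of the 68, against 1.38% and 2.31% of all genes tested. In APP/PS1 A2A versus A2A 1426 of all 18529 genes had such a p, 428 of them higher. The partner lists were drawn up with earlier results of these data known. Nothing is therefore read from these shares or from the median given below. The microglial marker sum stood higher in the same comparisons, and its part in these shares was not tested. DESeq2 called Irf8 and Ly9 higher in APP/PS1 A2A versus A2A and none elsewhere, and limma-voom called none. The median log2 fold change of the 68 was 0.10 in both comparisons, against 0.00 over all genes. The values below are for APP/PS1 A2A versus A2A and did not pass the adjusted test in edgeR.

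Of the PD-1 partners, Cd274, which encodes the ligand PD-L1, had a mean level of 3.02 CPM in A2A and 4.57 CPM in APP/PS1 A2A mice, a log2 fold change of 0.59 (SE 0.18, adjusted p = 0.241 in edgeR's test). The other ligand gene, Pdcd1lg2, was under the filter, Cd80 had 0.15 and Ptpn11, which encodes SHP-2, 0.04. The partners of LAG-3 did not stand higher as a group, with 4 of 8 positive and a median of -0.06. Fgl1 had 0.40 (SE 0.34), Lgals3, the gene of galectin-3, 0.49 (SE 0.46) and the MHC class II gene H2-Ab1 -0.53 (SE 0.55). The CD72 ligand gene Sema4d had 0.05 (SE 0.08) and Plxnb2, a receptor of the plexin family, 0.06 (SE 0.14).

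The list of the SLAM family, to which Cd84 belongs, and of its adaptors held 12 genes. Of these 7 were tested, and all 7 were positive (median 0.74). Ly9 had 1.71 (SE 0.45), from a mean of 0.368 CPM in A2A to 1.22 CPM in APP/PS1 A2A mice, with adjusted p = 0.177 in edgeR's test, the smallest of the 68. Slamf9 had 0.83 (SE 0.24) and Cd48 0.76 (SE 0.27). The same 3 genes had 1.27, 0.77 and 0.89 in APP/PS1 versus WT. The phosphatase genes Ptpn6, which encodes SHP-1, and Inpp5d, which encodes SHIP-1, had 0.40 (SE 0.14) and 0.30 (SE 0.10). Among relatives of Lilrb4a, Lilr4b had 1.11 (SE 0.41) and Lilra5 0.51 (SE 0.29), while Apoe, whose product binds LILRB4 in human cells, had -0.37 (SE 0.13).

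Of the other inhibitory receptors and ligands 14 of 20 were positive (median 0.25). Those with the smallest p were Laptm5, a lysosomal brake on immune receptors, with 0.50 (SE 0.17), the inhibitory Fc receptor gene Fcgr2b with 0.54 (SE 0.20) and Havcr2, which encodes TIM-3, with 0.37 (SE 0.13). Ctla4 and Tigit were under the filter. Of the myeloid transcription factors, Irf8 had 0.52 (SE 0.14), Spi1, the gene of PU.1, 0.27 (SE 0.14) and Runx1 0.37 (SE 0.22). Iron genes had values of either sign, with Hmox1 at 0.40 (SE 0.18), Ftl1 at -0.57 (SE 0.25) and Fth1 at -0.25 (SE 0.15). Siglecg and Prf1, the partners listed for CD52 and perforin-2, were under the filter.

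Of the matriptase partners, Prss8, which encodes prostasin, had the value farthest from 0, -2.52 (SE 0.97). Its level was 0 to 1.15 CPM in A2A and 0.0813 to 0.204 CPM in APP/PS1 A2A mice, and the summed epithelial markers were 2.43 to 16.6 CPM and 1.71 to 11.3 CPM in the same groups. The part of epithelial RNA in this value was not tested. The inhibitor gene Spint2 had -0.43 (SE 0.39) and F2rl1, the gene of the protease-activated receptor PAR2, -0.42 (SE 0.79). In A2A versus WT 1 of the 68 had an unadjusted p under 0.05 in edgeR (Fth1, higher), and in APP/PS1 A2A versus APP/PS1 2 had (Apoe and Prss8, both lower). Over all 18529 genes 637 and 532 had such a p in these comparisons, so nothing is read from these genes.

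**Figure D5:**
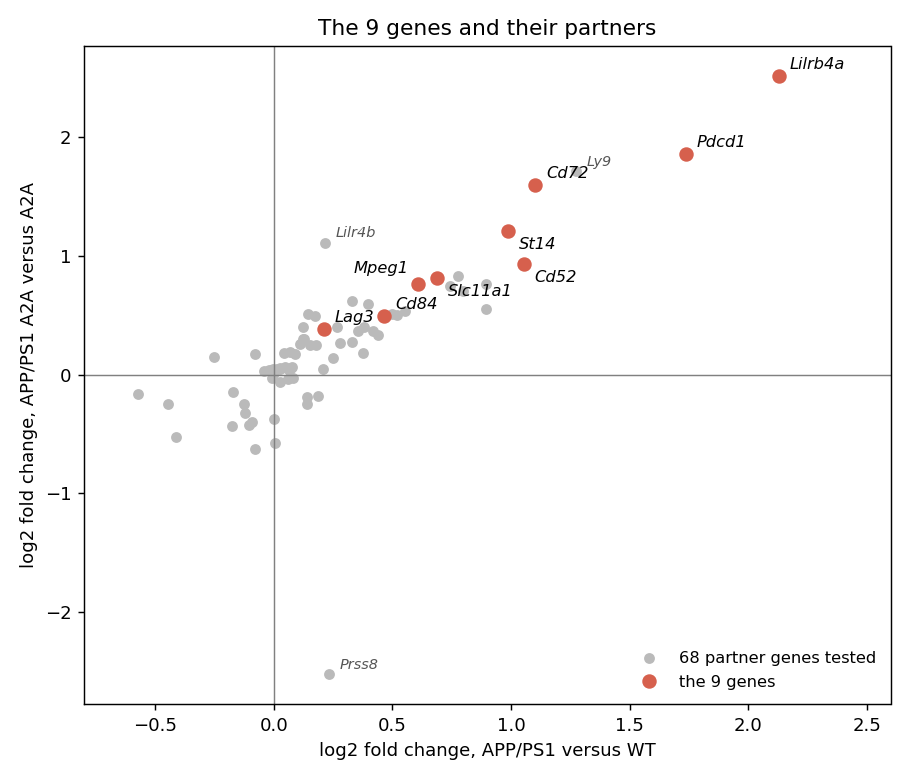
Log2 fold change in APP/PS1 versus WT (horizontal) against that in APP/PS1 A2A versus A2A (vertical) for the 9 genes (red) and the 68 partner genes tested (grey), from edgeR. The 9 genes were chosen on these axes, and among the partners Ly9 lies at 1.27 and 1.71, while Prss8 lies far below the rest on the vertical axis at -2.52.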

How the data were processed

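Hippocampal poly-A RNA from 19 mice was sequenced by the authors as single reads of 50 bases from a stranded kit. Per the study's methods, adaptors, reads under 40 bases and rRNA reads were removed, the rest was aligned to mm10 with STAR 2.5.3a, and reads were counted per gene with htseq-count 0.6.1p1 in union mode. The deposited table holds these raw counts for each gene and mouse, with a median transcript length per gene. It also holds the authors' own log2 fold changes, p-values and adjusted p-values from DESeq2 1.16.1 for the APP, A2A and APP A2A comparisons, which were not used. Groups came from the genotype label.

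Counts were normalised by TMM. Genes were kept with filterByExpr at a minimum count of 10 and tested with glmQLFTest in edgeR 4.0.16 (R 4.3.3), all 19 mice in 1 fit, with Benjamini-Hochberg adjustment over the genes kept. A gene was called where its adjusted p fell below 0.05 and its log2 fold change exceeded 0.32 in size, the study's thresholds. CPM uses TMM-scaled library sizes. Correlations used all 2880 (mice with APP/PS1) or 14400 (mice without) rearrangements within groups, two-sided, in place of the sampled permutations planned. Alternatives were DESeq2 1.42.0, limma-voom (limma 3.58.1), RLE scaling, no or a stricter filter, only the groups compared, and leaving out each mouse. Those for partner genes were chosen after seeing the data. The edgeR fit was tested on simulated data, with changes to recover in APP/PS1 versus WT only and in genes above a minimum level. That test does not cover genes as scarce as Pdcd1 or changes with A2A.

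The 9 genes, marker lists and partner lists were chosen with earlier results of these data known. All 9 genes are named, with up to 3 genes of each partner list by the smallest p in APP/PS1 A2A versus A2A and, for each of the 9, the 3 genes with the highest r. Genes named for another reason (Pdcd1lg2, Ctla4, Tigit, Siglecg and Prf1) are those under the filter. Of the partner genes, Pira2 was not analysed here. Protein motifs were not analysed here. A microglial marker and a gene close to Cd52 are not reported here, and the marker is left out of every marker sum. The libraries are of separate mice.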

Additional observations from a re-analysis of the deposited data

Results flagged for a closer look

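Of the 36 combinations of gene and genotype (4 or 5 mice each), 6 held a mouse whose level stood apart from the rest of its group by Dixon's criterion at 95%, and chance alone flags about 1 in 20. The levels were 0.204 CPM for Pdcd1 in WT replicate 5, 7.86 CPM for Lag3 in WT replicate 3, 12.6 CPM for Lag3 in APP/PS1 A2A replicate 1, 0.624 CPM for Cd72 in A2A replicate 4, 2.59 CPM for Cd52 in A2A replicate 4 and 5.93 CPM for Cd52 in APP/PS1 A2A replicate 1. All 6 were the highest of their group. For Cd52 the log2 fold change in APP/PS1 A2A versus APP/PS1 was -0.29 without APP/PS1 A2A replicate 1 and 0.05 with it, neither of which passed the test. For Cd72 in APP/PS1 A2A versus A2A it was 2.16 at most when a mouse was left out, against 1.59 with all mice.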

How the results depend on the processing

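In both comparisons of mice with against without A2A, and in the test of the difference between APP/PS1 effects, no gene tested was called under any alternative run. The sign and the size of these values varied. Not all 9 were tested in every run. When 10 counts were required in every mouse 6 were tested, and also 6 in A2A versus WT with only the groups compared. The difference was not run with only the groups compared. Mpeg1 in A2A versus WT (0.00 as reported) was -0.0027 with DESeq2, -0.0029 with RLE scaling and -0.00048 when 10 counts were required in every mouse, Cd84 was 0.0017 with no filter, and Cd52 in APP/PS1 A2A versus APP/PS1 was -1.88e-05 with limma-voom. Leaving out 1 mouse at a time, signs turned in A2A versus WT for Cd72 (-0.76 to 0.23), Cd84 (-0.046 to 0.048), Mpeg1 (-0.039 to 0.049) and St14 (-0.38 to 0.035). They turned in APP/PS1 A2A versus APP/PS1 for Cd52 (-0.29 to 0.20), Cd84 (-0.070 to 0.095), Lilrb4a (-0.23 to 0.15) and St14 (-0.14 to 0.054), and in the difference for Cd52 (-0.45 to 0.033), Cd84 (-0.068 to 0.10), Pdcd1 (-0.46 to 0.31) and St14 (-0.065 to 0.35). Of those that kept their sign, the values ran from 0.064 to 1.07 for Cd72 in the difference (0.49 as reported), from 0.37 to 1.13 for Pdcd1 in A2A versus WT (0.55 as reported) and from 0.074 to 0.40 for Cd72 in APP/PS1 A2A versus APP/PS1 (0.30 as reported). In the comparisons that chose the genes no sign turned. For APP/PS1 versus WT the number called was 2 of 9 as reported, 1 with limma-voom, 0 when 10 counts were required in every mouse (6 of the 9 tested), 0 with only the groups compared (8 tested) and 0 to 3 with a mouse left out. For APP/PS1 A2A versus A2A it was 2 as reported and 7 with DESeq2. It was 1 when 10 counts were required in every mouse (6 tested) and 2 to 3 with a mouse left out. The median per microglial marker for APP/PS1 versus WT was 0.37 with a pseudocount of 0.5 CPM against 0.79 with 0.05 CPM. Of the partner genes, DESeq2 called 2 in APP/PS1 A2A versus A2A against 0 in edgeR. The cause was not tested, except that the stricter filter removed Lilrb4a, 1 of the 2 genes called as reported, along with Pdcd1 and Cd72. Mpeg1, the other gene called, had at least 784 counts in every mouse. It stayed in the fit but was not called there for APP/PS1 versus WT. The division by 1 single marker is not reported here. No paired analysis was possible because the replicate numbers only name the mice and tie no litter or batch across groups. Pdcd1, with 1 to 26 counts a library, is limited by depth.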
